A study of Mus musculus with 6 samples.

Results

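The 57 genes described here encode subunits of the mitochondrial respiratory chain that are made from nuclear DNA. They are 35 subunits of complex I, 4 of complex II, 7 of complex III, cytochrome c and 10 subunits of complex IV. They were chosen by gene symbol, with earlier results of these data known. All 57 were among the 43629 genes of the deposited tables and among the 15341 genes with enough counts to be tested. RNA-seq was done on cultured fibroblasts from the dermis of newborn mice, grown for 6 days and taken at passage 1. Every culture carried Col1a2Cre, a Cre recombinase driven in fibroblasts by the Col1a2 promoter, on a mixed background of 50% C57Bl/6 and 50% FVB/N. The control group (ctrl, 3 libraries) had Cre alone. The caNrf2 group (3 libraries) had Cre together with a constitutively active mutant of Nrf2. The series' design text gives 3 mice per group, but the titles do not tie a library to a mouse, so p-values measure the spread between these libraries.

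The respiratory chain sits in the inner mitochondrial membrane. Complex I takes electrons from NADH and complex II takes them from succinate, both pass them to ubiquinone, complex III hands them to cytochrome c, and complex IV reduces oxygen to water. Complexes I, III and IV pump protons as they do so, and ATP synthase uses the proton gradient to make ATP. Most subunits are encoded in the nucleus and imported, while a few core subunits are encoded by mitochondrial DNA. NRF2, the product of Nfe2l2, is known for inducing antioxidant and detoxification genes. It is a different protein from nuclear respiratory factor 1, the product of Nrf1, and from GA-binding protein (GABP), once called nuclear respiratory factor 2, which are known regulators of respiratory chain genes.

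Library totals lay between 30168400 and 45164208 expected counts, and the member with the lowest level per unit length still averaged 19.5 TPM, a unit scaled for transcript length and library size. Nfe2l2 was 3.48-fold higher in caNrf2 cultures, with 113, 103 and 112 CPM (counts scaled to a common library size, given in replicate order) in the controls against 352, 430 and 358 CPM. All 10 NRF2 targets listed rose, among them Nqo1, a quinone reductase, by 25.3-fold. Defining fibroblast markers were abundant in both groups (summed level 17994 to 23949 TPM against 14503 to 15835 TPM, ctrl first); of 10 markers, 2 rose and 5 fell. All 14 leukocyte markers rose, with a sum of 30.7, 90.9 and 92.7 TPM in the ctrl libraries against 245, 287 and 236 TPM, and none was at 0 in all libraries. Of 13 tested skeletal muscle markers 10 rose and 1 fell (summed level of all 16 listed 168 to 193 TPM against 275 to 329 TPM). Of the other markers, 1 of 9 tested for keratinocytes rose (153 to 255 TPM against 210 to 359 TPM over those listed), 1 of 6 for endothelial cells, 1 of 8 for melanocytes and Schwann cells and 0 of 5 for adipocytes (0 at an unadjusted p under 0.05), and none fell. The part of these other cells in the results on the respiratory chain was not tested, and in such bulk RNA fewer cells of a type and less RNA per cell cannot be told apart.

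One library stood apart in a way that touches these genes. In caNrf2 replicate 1, genes with short transcripts read higher than in the mean of the ctrl libraries and genes with long transcripts read lower. The median difference over all 635 tested genes with transcripts under 700 bases was 0.26 on the log2 scale in that library, against -0.16 over the 3928 genes above 4000 bases. In the other 5 libraries the same medians lay between -0.07 and 0.02. The 57 subunit genes have short transcripts, with a median of 779 bases (362 to 3071) against 2697 bases over all genes tested, and 55 of them are shorter than that overall median. Across the 57, the fold change and the log of transcript length had a Pearson r of -0.20 and a Spearman rho of -0.19, given as a description only. The complexes' medians and the members named below that moved by over 1.5 times without this library are given with and without it.

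**Figure D1:**
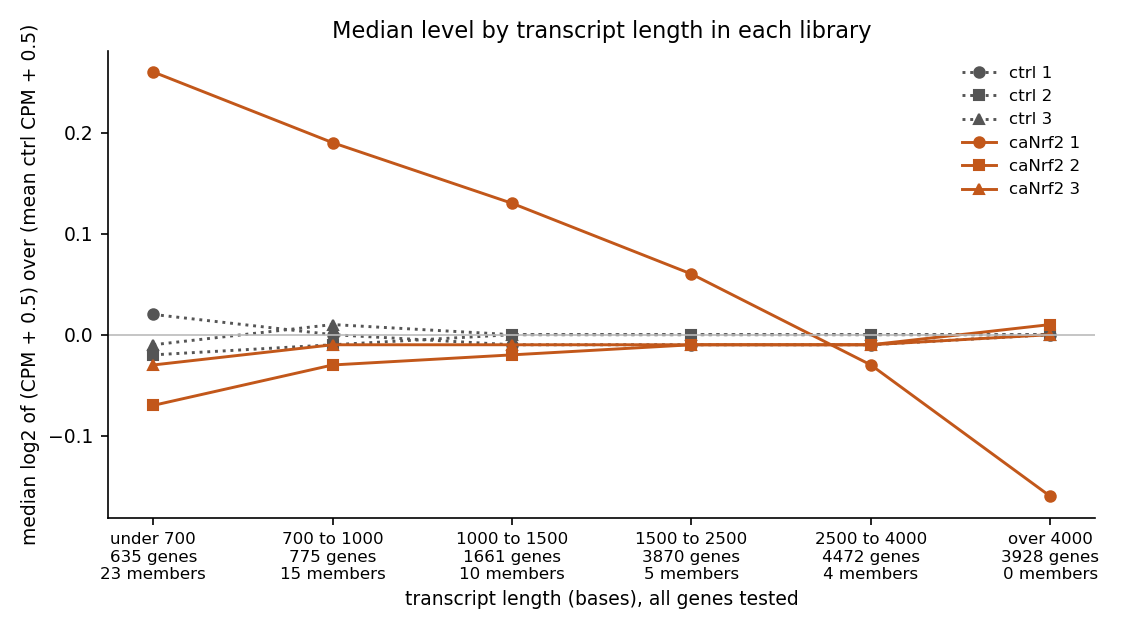
Median log2 of CPM + 0.5 over the mean ctrl CPM + 0.5 (y axis) for all tested genes, in 6 bins of transcript length (x axis, bases), with a line for each library and the number of genes and of subunit genes under each bin; 23 of the 57 subunit genes fall in the shortest bin. The line of caNrf2 replicate 1 runs from 0.26 in the shortest bin to -0.16 in the longest, while the other 5 stay between -0.07 and 0.02.

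Most respiratory chain transcripts read slightly higher in caNrf2 cultures, and few of them passed the test. Uqcrc1, Ndufb7 and Ndufa8 rose, which is 3 of 57 (5.26%), and no member fell; over all genes tested 21.5% were called, 12.5% higher and 9.03% lower (edgeR quasi-likelihood test, Benjamini-Hochberg adjusted p under 0.05). The share of members called was thus below the share of all genes called. The fold change was positive for 52 of the 57 members, against 49.6% of all genes, and the members' median was 0.18 on the log2 scale (quartiles 0.12 and 0.28, range -0.21 to 0.46), against -0.00 over all genes. At an unadjusted p under 0.05 there were 13 members higher (22.8%, against 18.8% of all genes) and 1 lower (1.75%, against 16.4%), so the share that was higher was near that of all genes. DESeq2 called 6 higher and 0 lower, against 13.4% and 10.2% of all genes called higher and lower by that tool.

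The small shift was mostly that of caNrf2 replicate 1. That library held the highest value of the 6 for 52 of the 57 members. Its median over the members was 0.40 above the ctrl mean on the log2 scale, while caNrf2 replicates 2 and 3 were at 0.05 and 0.08 and the 3 ctrl libraries at 0.01, 0.00 and -0.02. Without caNrf2 replicate 1 the median fold change of the members was 0.06, with 41 of 57 positive (48.4% of all genes positive), and 2 members rose and 0 fell (11.1% and 7.26% of all genes). With the counts corrected for transcript length the median was 0.12, with 48 of 57 positive (50.2% of all genes), and 8 members rose and 1 fell, against 15.3% and 10.9% of all genes.

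**Figure D2:**
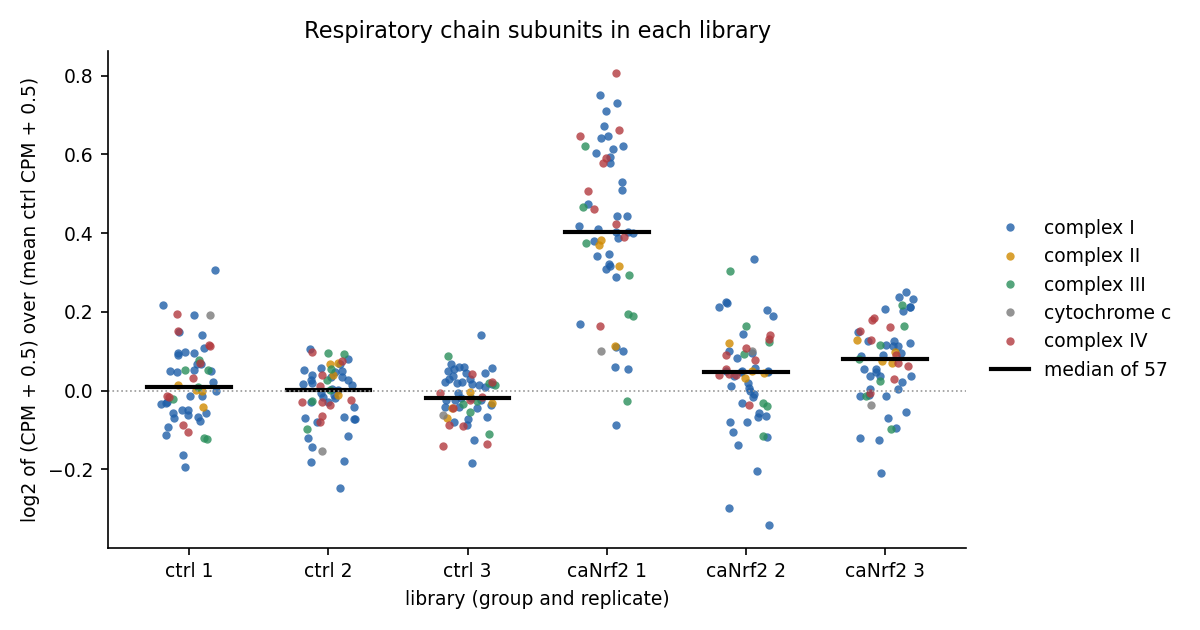
Log2 of CPM + 0.5 over the mean ctrl CPM + 0.5 (y axis) in each of the 6 libraries (x axis); each point is 1 of the 57 subunit genes, coloured by complex, and black bars are medians. The points of caNrf2 replicate 1 sit highest, with a median of 0.40, and those of the other 5 libraries have medians between -0.02 and 0.08.

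The intervals give a range of change for each gene taken alone, not for the 57 as a set. The 95% interval of every one of the 57 fold changes lay within 2-fold in either direction, with lower bounds down to -0.42 and upper bounds up to 0.78 on the log2 scale. The standard error of a member's log2 fold change ranged from 0.07 to 0.22 with a median of 0.11. In 20 members all 3 caNrf2 libraries lay above all 3 ctrl libraries (35.1%, against 22.0% of all genes), and in 1 member, Ndufs4, all 3 lay below (1.75%, against 20.1%). Without caNrf2 replicate 1 these numbers were 20 above (27.7% of all genes) and 3 below (26.4%). The 20 above were the same members both times, since a member above ctrl in every caNrf2 library stays above when 1 is left out.

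**Figure D3:**
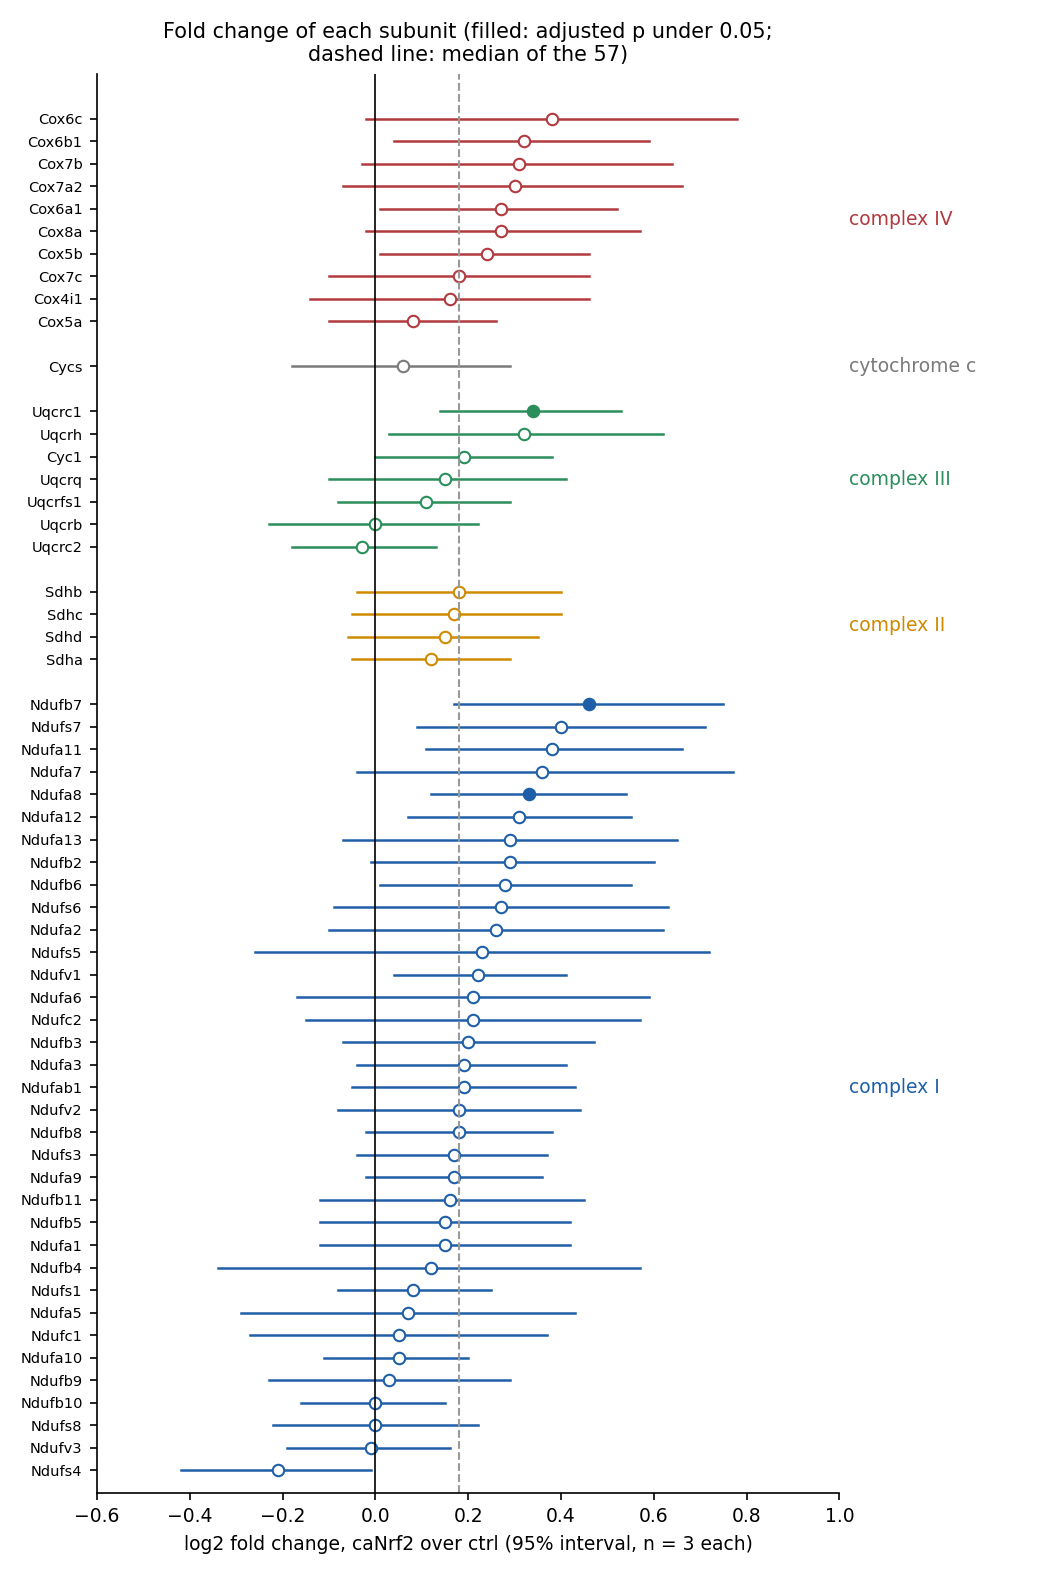
Log2 fold change of caNrf2 over ctrl (x axis, n = 3 each) for each of the 57 subunit genes (circles) with its 95% interval (lines), grouped by complex, with the members' median dashed. Filled circles are Uqcrc1, Ndufb7 and Ndufa8, which passed the adjusted threshold; fold changes span -0.21 (Ndufs4) to 0.46 (Ndufb7) and every interval lies between -0.42 and 0.78.

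Complex I, the NADH dehydrogenase, is an L-shaped enzyme with a matrix arm that oxidises NADH and a membrane arm that pumps protons. Among its 35 measured subunits 2 rose, both accessory subunits of the membrane arm, and none fell. The median log2 fold change was 0.19 over complex I, 0.05 without caNrf2 replicate 1 and 0.12 after length correction. Medians were 0.18 over 15 matrix arm subunits and 0.19 over 19 membrane arm subunits, with Ndufab1, an acyl carrier protein found in both arms, left out of either; the 6 catalytic core subunits had a median of 0.17 and the 29 accessory subunits 0.19. Without caNrf2 replicate 1 those medians were 0.05 (matrix arm), 0.02 (membrane arm), 0.07 (core) and 0.02 (accessory).

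Ndufb7 (ENSMUSG00000033938, chromosome 8, 83566671 to 83571626, GRCm38) encodes an accessory subunit of the membrane arm on the side of the intermembrane space. It measured 29.1, 32.0 and 31.1 CPM in ctrl and 51.3, 38.9 and 36.2 CPM in caNrf2. All 3 caNrf2 libraries were above ctrl, and caNrf2 replicate 1 was well above the other 2. Its log2 fold change was 0.46 (SE 0.13, 1.37-fold, edgeR adjusted p = 0.0339), the highest of the 57, and 0.29 without caNrf2 replicate 1 (adjusted p = 0.0452). The call was lost without ctrl replicate 1, 2 or 3, at adjusted p of 0.116, 0.0653 and 0.0866.

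Ndufa8 (ENSMUSG00000026895, chromosome 2, 36036326 to 36049406) encodes another accessory subunit facing the intermembrane space. Its levels were 38.1, 39.9 and 41.4 CPM in ctrl and 56.9, 46.5 and 47.0 CPM in caNrf2. The groups did not overlap. The log2 fold change was 0.33 (SE 0.09, 1.26-fold, edgeR adjusted p = 0.0352), and 0.23 without caNrf2 replicate 1. Of the fits with 1 library left out, the call held only where caNrf2 replicate 2 was the library left out (adjusted p = 0.0496): the adjusted p was 0.11, 0.0854 and 0.074 without ctrl replicates 1, 2 and 3, and 0.0559 and 0.0588 without caNrf2 replicates 1 and 3.

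The catalytic core, which carries the flavin and iron-sulfur clusters, gave no call. Ndufs7, which holds the last iron-sulfur cluster before ubiquinone, measured 23.1, 24.5 and 24.2 CPM in ctrl and 39.5, 27.8 and 27.8 CPM in caNrf2. The groups did not overlap, and most of the difference came with caNrf2 replicate 1: the log2 fold change was 0.40 (SE 0.14, edgeR adjusted p = 0.0672) and 0.21 without that library. Ndufv1, which binds NADH and the flavin, had a log2 fold change of 0.22 (95% interval 0.04 to 0.41). Ndufs1, which carries further iron-sulfur clusters, had 0.08 (interval -0.08 to 0.25), and Ndufs8, another core subunit, had 0.00 (interval -0.22 to 0.22), or -0.09 without caNrf2 replicate 1.

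Other accessory subunits near the threshold were Ndufa11 and Ndufa12, which sit in the membrane arm and the matrix arm. Ndufa11 measured 31.0, 35.0 and 33.3 CPM in ctrl and 52.1, 38.2 and 39.5 CPM in caNrf2, with a log2 fold change of 0.38 (SE 0.12, edgeR adjusted p = 0.0546), or 0.23 without caNrf2 replicate 1 (adjusted p = 0.0891). Ndufa12 measured 28.2, 34.1 and 32.7 CPM in ctrl and 44.2, 37.1 and 36.6 CPM in caNrf2, with 0.31 (SE 0.10, adjusted p = 0.0662), or 0.22 without that library. In both genes all caNrf2 libraries were above ctrl. Ndufa12 shares 99.5% of its sequence over 71% of its length with the processed pseudogene Gm15920 (6.72 CPM on average, against 35.5 CPM for Ndufa12), so the division of reads between them is uncertain. The complex I subunit with the highest level per unit length, Ndufa3 of the membrane arm, averaged 314 TPM and measured 37.6, 39.9 and 40.0 CPM in ctrl against 51.1, 40.2 and 42.5 CPM in caNrf2, a log2 fold change of 0.19 (interval -0.04 to 0.41), or 0.08 without caNrf2 replicate 1.

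Ndufs4 ran the other way. It encodes an accessory subunit of the matrix arm whose loss in mice and people impairs complex I and causes a Leigh-like encephalopathy. It measured 40.5, 35.7 and 36.4 CPM in ctrl and 35.3, 29.5 and 32.4 CPM in caNrf2. All 3 caNrf2 libraries lay below ctrl, though the highest of them nearly reached the lowest ctrl library. The log2 fold change was -0.21 (SE 0.09, interval -0.42 to -0.01), which did not pass the adjusted threshold (edgeR adjusted p = 0.131); after length correction it was -0.25 (adjusted p = 0.0375), and it was -0.28 without caNrf2 replicate 1 (adjusted p = 0.0711).

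Complex II, succinate dehydrogenase, is the only complex of the chain made entirely from nuclear genes, and none of its 4 subunits passed the test. Sdha, the flavoprotein subunit that oxidises succinate, measured 187, 192 and 181 CPM in ctrl and 202, 203 and 204 CPM in caNrf2. Those caNrf2 CPM values were all higher and caNrf2 replicate 1 was not apart from the other 2. Even so, the log2 fold change of 0.12 (SE 0.07, interval -0.05 to 0.29) gave an edgeR adjusted p of 0.273. In TPM the groups overlapped for Sdha, at 129, 131 and 125 in ctrl against 123, 135 and 138 in caNrf2. There caNrf2 replicate 1 was the lowest library. Sdhb, the iron-sulfur subunit, measured 67.0, 65.8 and 66.1 CPM in ctrl and 86.5, 68.6 and 69.9 CPM in caNrf2 (log2 fold change 0.18, adjusted p = 0.224). The groups did not overlap for Sdhb, but they did for the membrane anchors: Sdhc measured 88.5, 95.8 and 89.2 against 118, 93.2 and 97.6 CPM (0.17), and Sdhd measured 74.3, 78.0 and 70.9 against 92.7, 76.7 and 78.1 CPM (0.15). For Sdhb, Sdhc and Sdhd the value without caNrf2 replicate 1 was 0.06, while for Sdha it stayed at 0.12. The median over complex II was 0.16, and 0.06 without caNrf2 replicate 1.

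Complex III, the cytochrome bc1 complex, held the member with the smallest adjusted p of the 57. Uqcrc1 (ENSMUSG00000025651, chromosome 9, 108936633 to 108949623) encodes a core protein of its matrix side. It measured 126, 133 and 125 CPM in ctrl and 177, 158 and 149 CPM in caNrf2. All 3 caNrf2 libraries were above ctrl. Its log2 fold change was 0.34 (SE 0.09, 1.26-fold, edgeR adjusted p = 0.0247) and 0.27 without caNrf2 replicate 1 (adjusted p = 0.0439); the call was lost without ctrl replicate 1, ctrl replicate 3 or caNrf2 replicate 2, at adjusted p of 0.0769, 0.0888 and 0.065.

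The other complex III subunits gave no call. Uqcrc2, the partner core protein of Uqcrc1, measured 114, 108 and 108 CPM in ctrl and 108, 107 and 109 CPM in caNrf2, with a log2 fold change of -0.03 (interval -0.18 to 0.13). Uqcrh, the hinge protein that helps cytochrome c dock and the complex III subunit with the highest level per unit length (385 TPM), measured 86.0, 83.1 and 79.9 CPM in ctrl and 128, 90.5 and 93.1 CPM in caNrf2. The groups did not overlap, and the log2 fold change of 0.32 (edgeR adjusted p = 0.11) was 0.15 without caNrf2 replicate 1. Cyc1, the cytochrome c1 subunit, had 0.19, Uqcrfs1, the Rieske iron-sulfur protein, had 0.11, and Uqcrb, a subunit near the ubiquinone site, had -0.00 (interval -0.23 to 0.22). Without caNrf2 replicate 1 these were 0.14, 0.06 and -0.11. The median over complex III was 0.15, and 0.06 without caNrf2 replicate 1. Cycs, the mobile carrier cytochrome c, measured 33.3, 26.1 and 27.8 CPM in ctrl and 31.2, 31.2 and 28.3 CPM in caNrf2; the groups overlapped and the log2 fold change was 0.06 (interval -0.18 to 0.29, edgeR adjusted p = 0.729), or 0.03 without caNrf2 replicate 1.

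Complex IV, cytochrome c oxidase, had the highest median of the complexes at 0.27, and none of its 10 nuclear subunits passed the test. The median was 0.10 without caNrf2 replicate 1 and 0.18 after length correction. Cox4i1, a structural and regulatory subunit and the member with the highest level per unit length (564 TPM), measured 184, 182 and 191 CPM in ctrl and 256, 181 and 185 CPM in caNrf2. Only caNrf2 replicate 1 was above ctrl for Cox4i1, and the log2 fold change of 0.16 (interval -0.14 to 0.46) was -0.02 without it. Cox6c, a small membrane subunit, measured 91.0, 82.9 and 86.3 CPM in ctrl and 152, 89.1 and 98.2 CPM in caNrf2 (0.38, interval -0.02 to 0.78, edgeR adjusted p = 0.162). Both caNrf2 replicates 1 and 3 were above ctrl for Cox6c, replicate 1 by far the most, and the fold change was 0.11 without replicate 1. Cox6b1, a subunit on the intermembrane space side, had a log2 fold change of 0.32 (adjusted p = 0.0953), or 0.16 without caNrf2 replicate 1, and Cox5a, a matrix side subunit, had 0.08 (interval -0.10 to 0.26), or 0.03 without it.

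**Figure D4:**
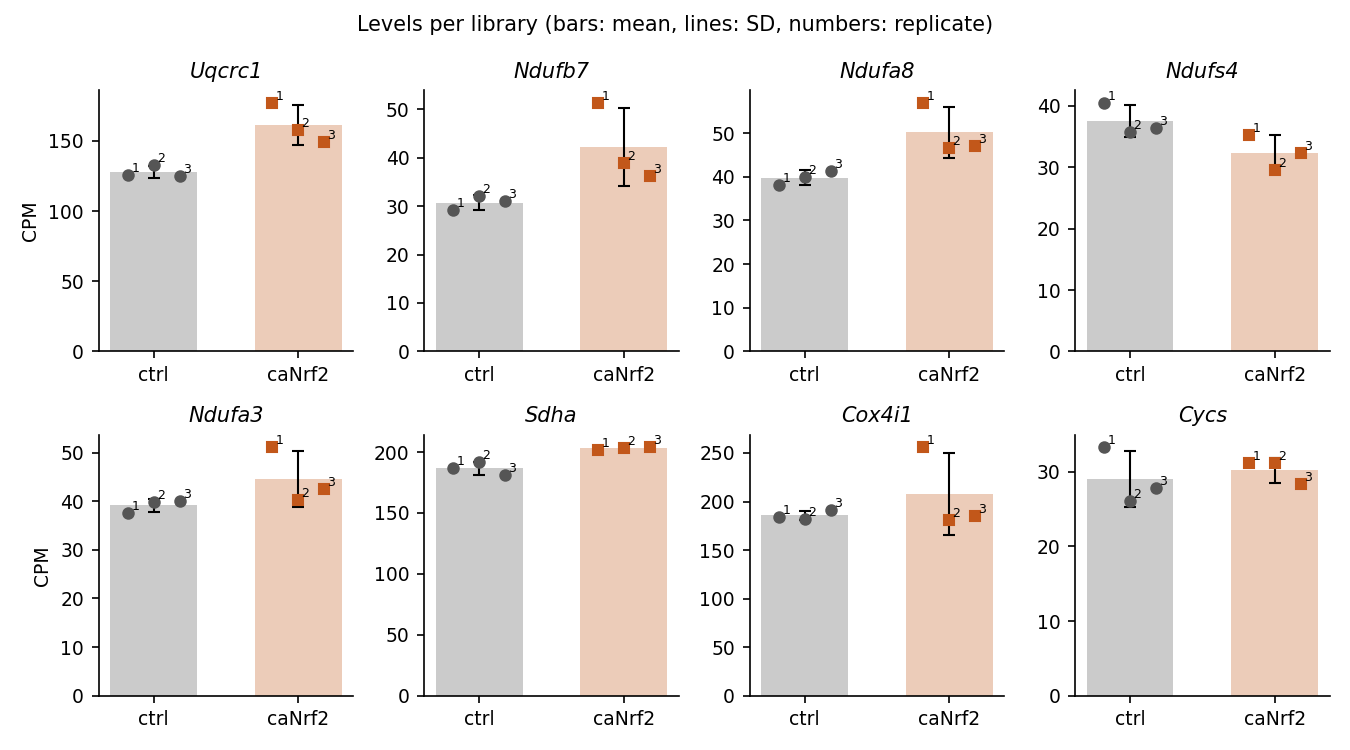
CPM (y axis) in each library (points, numbered by replicate) of ctrl and caNrf2, with the mean (bars) and SD (lines, n = 3 each), for 8 subunit genes, among them the 3 that rose. For Uqcrc1, Ndufb7 and Ndufa8 all caNrf2 points lie above all ctrl points, for Ndufs4 all lie below, and for Cox4i1 only caNrf2 replicate 1 (256 CPM) lies above the ctrl points (182 to 191 CPM).

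Transcript levels differed widely between subunits of the chain. Mean levels of the 57 subunits ranged from 19.5 TPM (Cycs) to 564 TPM (Cox4i1) with a median of 129 TPM, against a median of 14.5 TPM over all genes tested, and 43 were above 100 TPM. The 5 genes of highest level were all complex IV subunits, Cox4i1, Cox6b1, Cox6a1, Cox6c and Cox8a. Together the 57 made up 0.93% of all TPM in ctrl and 1.03% in caNrf2. Their sum was 9239, 9354 and 9302 TPM in the ctrl libraries and 11588, 9569 and 9776 TPM in the caNrf2 libraries. All 3 caNrf2 sums were above ctrl, and most of the gap was in replicate 1. As mean ± SD (n = 3 each) the sums were 9298 ± 58 and 10311 ± 1111 TPM, a ratio of 1.11, or 1.04 without caNrf2 replicate 1.

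Promoter sequences are shown for the 3 genes that rose, to give the sequence next to the start of each, and for Sdha and Ndufa7, which carry matches to the motifs searched. RefSeq windows of 250 bases before to 50 after the start were at hand for 47 of the 57 genes. The 120 bases before the start are given 5′ to 3′ on the gene's strand (GRCm38.p6, RefSeq), in lower case with motif matches in capitals. The motifs were searched on both strands. The motif of nuclear respiratory factor 1 was searched as a consensus of 10 letters, and the core of the antioxidant response element, bound by NRF2, was TGACNNNGC.
Uqcrc1 (chr9:108936528-108936647, plus strand): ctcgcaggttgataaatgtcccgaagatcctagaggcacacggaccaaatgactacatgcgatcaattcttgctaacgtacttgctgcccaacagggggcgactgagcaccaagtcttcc
Ndufb7 (chr8:83566638-83566757, plus strand): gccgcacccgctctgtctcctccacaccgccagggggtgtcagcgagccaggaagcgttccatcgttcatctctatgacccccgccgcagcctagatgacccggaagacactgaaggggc
Ndufa8 (chr2:36049339-36049458, minus strand): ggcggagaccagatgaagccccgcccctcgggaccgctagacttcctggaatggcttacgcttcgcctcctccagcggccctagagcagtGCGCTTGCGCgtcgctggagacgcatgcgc
Sdha (chr13:74350241-74350360, minus strand): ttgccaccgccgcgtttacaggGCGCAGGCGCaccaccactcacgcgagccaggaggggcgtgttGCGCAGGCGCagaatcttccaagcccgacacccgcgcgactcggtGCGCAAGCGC
Ndufa7 (chr17:33824452-33824571, plus strand): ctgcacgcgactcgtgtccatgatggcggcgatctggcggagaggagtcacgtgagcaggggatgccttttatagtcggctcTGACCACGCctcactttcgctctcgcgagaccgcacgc

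The Ndufa8 sequence holds a nuclear respiratory factor 1 match on the opposite strand 30 bases before the start, and Sdha holds 3 such matches 98, 55 and 10 bases before it. Uqcrc1 has matches to this motif only after its start, at positions 5 and 30, so its printed bases carry no capitals. The match in Ndufa7 is an antioxidant response element core 38 bases before the start shown. Ndufa7 has another RefSeq start, not shown, and the same match lies 111 bases before it. Ndufa7, an accessory complex I subunit, measured 36.7, 43.1 and 46.5 CPM in ctrl and 71.2, 42.7 and 48.5 CPM in caNrf2, and the groups overlapped (log2 fold change 0.36, or 0.11 without caNrf2 replicate 1). Over the windows, 11 of 47 members (23.4%) held a nuclear respiratory factor 1 match against 5.19% of 27025 genes, and 8 (17%) held the antioxidant response element core against 14% of genes. The GABP site CCGGAAGT was in 3 (6.38% against 4.31%) and the core AAGATGGCG of YY1, a zinc finger factor, was in 5 (10.6% against 1.64%). The 27025 genes are all those with a RefSeq window, whether tested here or not, and were not matched to the members in level or base content. A match is a description of these letters and not a sign of binding.

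Several other respiratory chain genes were not among the 57. Of 5 further subunits tested 2 rose. Uqcr11, a small complex III subunit, measured 33.5, 36.5 and 34.8 CPM in ctrl and 68.3, 43.3 and 43.9 CPM in caNrf2 (log2 fold change 0.57, edgeR adjusted p = 0.0396; 0.32 without caNrf2 replicate 1, adjusted p = 0.0219). Its call was lost without ctrl replicate 1, 2 or 3 (adjusted p 0.127, 0.0749 and 0.1). Ndufa4, now assigned to complex IV, had 0.40 (adjusted p = 0.044) and was lost without each library except caNrf2 replicate 2, at adjusted p from 0.0507 to 0.136. Of 5 tested isoforms specific to certain tissues 2 fell, and both were scarce: Ndufa4l2, a relative of Ndufa4 induced by hypoxia, was at 0.346 to 0.892 CPM across the libraries (-1.10, adjusted p = 0.0269), and Cox6a2, the muscle form of a complex IV subunit, at 0.338 to 2.02 CPM (-1.34, adjusted p = 0.0327). Cox6a2 was also the 1 skeletal muscle marker that fell. Ndufa4l2 lost its call without any one library other than ctrl replicate 1, at adjusted p up to 0.0985. Cox6a2 lost it without ctrl replicate 3, caNrf2 replicate 1 or caNrf2 replicate 2, at adjusted p up to 0.109.

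The subunits encoded by mitochondrial DNA gave no call among 13 genes (1 was lower at an unadjusted p under 0.05 by edgeR). Their log2 fold changes ran from -1.48 to 0.97, and the median was -0.09, also without caNrf2 replicate 1. The gene at -1.48, mt-Nd4l, was also the 1 lower at an unadjusted p. It measured 150, 24.4 and 30.3 CPM in ctrl and 23.2, 27.4 and 22.4 CPM in caNrf2, so its value rested on ctrl replicate 1. The sum of the 13 came to 18245 ± 1444 CPM (SD) against 17456 ± 279 CPM (ctrl first, n = 3 each), a ratio of 0.957. Several of these genes have near-identical nuclear copies that took more of the reads: mt-Co2 averaged 205 CPM and its copy Gm28661 averaged 2531 CPM, and mt-Atp6 averaged 375 CPM against 2373 CPM for Gm10925. With all copies added the sums were 26692 ± 2339 and 25045 ± 662 CPM, a ratio of 0.938, in an alternative chosen after seeing the data.

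Genes that build the chain or work beside it gave isolated calls. Among 18 ATP synthase genes 1 rose, Atpif1, an inhibitor of the enzyme's reverse reaction (0.36, edgeR adjusted p = 0.0121), and the median was 0.18, or 0.07 without caNrf2 replicate 1. Of 17 complex I assembly factors 1 fell, Tmem126b (-0.41, adjusted p = 0.0244), none rose, and the median was 0.06; this call was lost without ctrl replicate 1, ctrl replicate 3, caNrf2 replicate 2 or caNrf2 replicate 3, at adjusted p from 0.0518 to 0.0751. Of 25 complex IV assembly factors 1 rose, Cox19 (0.28, adjusted p = 0.0354), which was lost with any library left out (adjusted p 0.0577 to 0.136), and of 10 assembly factors of complexes II and III none was called (0 at an unadjusted p under 0.05).

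Regulators of mitochondrial biogenesis gave 2 calls among 21. Gabpb2, a subunit of GABP, fell from 72.5, 67.0 and 76.4 CPM in ctrl to 35.9, 41.4 and 47.2 CPM in caNrf2 (-0.79, edgeR adjusted p = 0.00103). Its relative Gabpb1 measured 25.5, 25.8 and 24.1 CPM in ctrl and 23.1, 26.5 and 25.4 CPM in caNrf2 (-0.01, interval -0.19 to 0.18). Esrra, an orphan nuclear receptor, rose by 0.40 (adjusted p = 0.0344), a call lost without ctrl replicate 1, ctrl replicate 3, caNrf2 replicate 1 or caNrf2 replicate 2 (adjusted p 0.0916 to 0.108). Ppargc1a, the coactivator PGC-1 alpha, was near the limit of detection at 0.352 to 0.564 CPM. Nrf1 had -0.09 (interval -0.27 to 0.10), Tfam, the mitochondrial DNA transcription factor, had -0.14 (-0.34 to 0.06), and Gabpa, the DNA-binding subunit of GABP, had -0.17 (-0.36 to 0.01).

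Channel and import genes held the smallest adjusted p of these related lists. Slc25a5, an ADP/ATP carrier of the inner membrane, rose from 264, 273 and 245 CPM in ctrl to 445, 442 and 425 CPM in caNrf2, by 0.75 on the log2 scale (edgeR adjusted p = 0.000322; 0.74 without caNrf2 replicate 1). Hspa9, a mitochondrial chaperone that draws in imported proteins, fell from 895, 939 and 1042 CPM to 690, 647 and 733 CPM (-0.47, adjusted p = 0.00763). Neither gene overlapped between groups, and neither lost its call with any library left out. Of 17 channel and import genes 3 rose and 1 fell; the others called were Tomm40, the pore of the outer membrane translocase (0.43, adjusted p = 0.0303), and Vdac3, an outer membrane channel (0.29, adjusted p = 0.0427). Tomm40 lost its call without ctrl replicate 1, ctrl replicate 3, caNrf2 replicate 1 or caNrf2 replicate 2 (adjusted p up to 0.105), and Vdac3 with any library left out (up to 0.117). Ogdh, a TCA cycle enzyme, rose by 0.39 (adjusted p = 0.0302), a call lost without ctrl replicate 1, ctrl replicate 3, caNrf2 replicate 2 or caNrf2 replicate 3, at adjusted p up to 0.105.

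**Figure D5:**
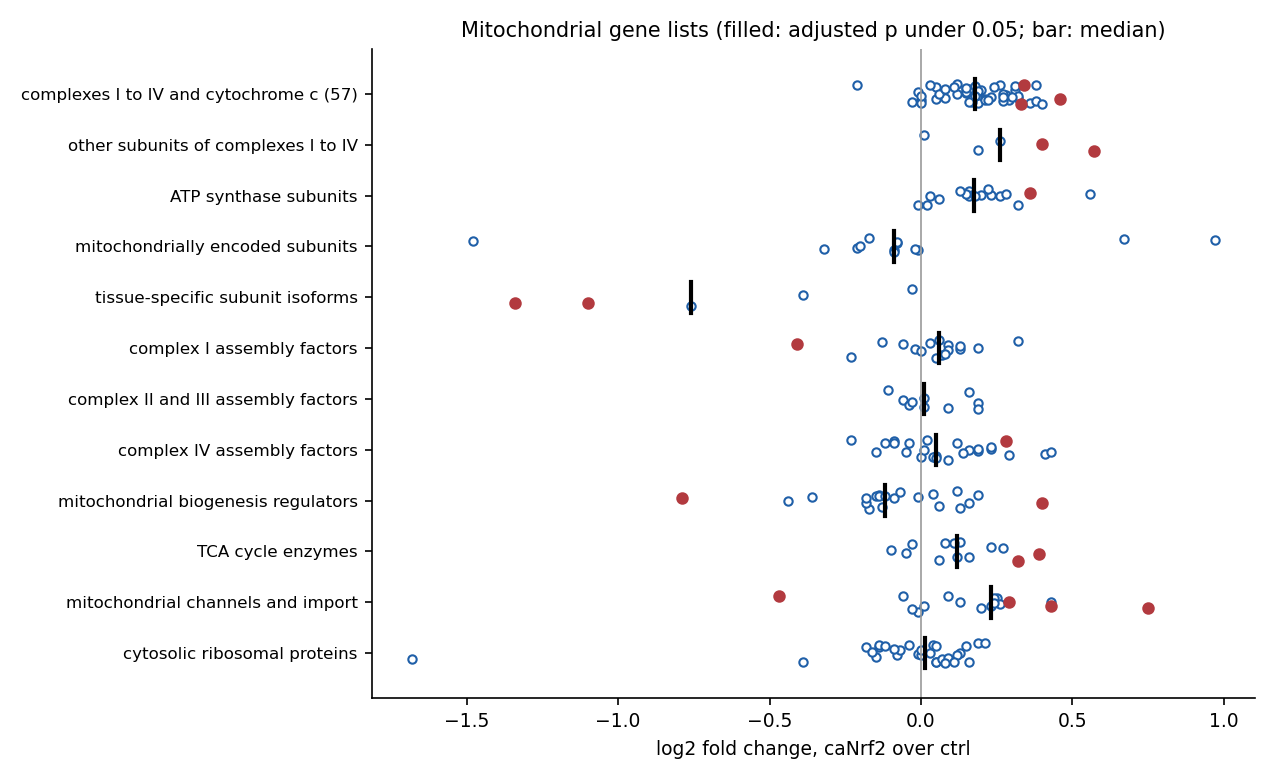
Log2 fold change of caNrf2 over ctrl (x axis) for the genes of each list (circles, filled where called; bars are medians). The median of the 57 subunits lies at 0.18, that of the mitochondrially encoded subunits at -0.09 and that of 30 cytosolic ribosomal protein genes at 0.02.

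Cytosolic ribosomal protein genes, another set of short and abundant transcripts, served as a point of comparison. None of the 30 was called (1 was lower at an unadjusted p under 0.05), and their median log2 fold change was 0.02. Per library their median was 0.30 in caNrf2 replicate 1, -0.21 in replicate 2 and -0.11 in replicate 3, against 0.40, 0.05 and 0.08 for the respiratory chain subunits. Both sets were thus highest in caNrf2 replicate 1, and in the other caNrf2 libraries the subunits were near the ctrl mean while the ribosomal protein genes were below it. The difference between the sets was not tested. Among the 57 subunits 11 overlap another tested gene and 8 have a copy elsewhere that is near-identical over part or most of their length. Where sequence is shared, the division of reads is uncertain. The copies of members with the most reads were BC002163 of Ndufs5 (11.4 CPM on average) and Gm15920 of Ndufa12 (6.72 CPM). The strand setting of the counting, which matters for pairs on opposite strands such as Ndufs1 with Eef1b2, is not given in the sources used here. It would not part pairs on the same strand, such as Cox4i1 with Gm20388 (197 and 201 CPM on average). Cox6c overlaps Vps13b on the opposite strand (79.9 CPM, log2 fold change 0.36, edgeR adjusted p = 0.0479). Ndufb2 overlaps Adck2 on the same strand (10.1 CPM, -0.41, adjusted p = 0.0205).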

How the data were processed

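RNA from 6 cultures, 3 ctrl and 3 caNrf2, was sequenced. Per the file headers, the deposited tables give expected counts per transcript, with reads that match several transcripts divided among them, and TPM, which the authors scaled to a common total per library. RSEM 1.2.21 and CASAVA 1.8, on build GRCm38, are listed in the submitters' processing notes; how reads were aligned, and on which strand they were counted, is not given in the sources used here. Expected counts were summed per gene and rounded, and the comparison used edgeR 4.0.16 under R 4.3.3 (filter by filterByExpr with minimum count 10 and total 15, TMM, two-sided quasi-likelihood F test, Benjamini-Hochberg adjustment over all 15341 genes, threshold 0.05, no replicate block). Intervals are 95% from the moderated standard error. CPM used TMM-scaled library sizes; TPM was used to compare levels between genes. On simulated counts (15162 genes) the test called 89 of 100 genes changed 2-fold, 64 of 100 changed 1.5-fold and 9 of 14962 unchanged. The changed genes were drawn from those with a mean count of at least 50. No trend with transcript length was simulated, and no smaller change was tried. Copies were found by BLAST against GENCODE M21 (95% identity over 50% of the length). The subunits and lists were chosen with earlier results of these data known. The named members are those called, the 4 complex II subunits, the highest of each complex by TPM, the 3 uncalled of smallest p and the uncalled of highest and lowest fold change; Ndufv1, Ndufs1, Ndufs8, Ndufa7 and the further complex III and IV subunits were added after their values were seen. Alternatives were 20 settings, among them DESeq2 1.42.0, limma-voom (limma 3.58.1), other scalings and filters, length and GC corrections and each library left out. The result of 1 gene of the related lists is not reported here.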

Additional observations from a re-analysis of the deposited data

How the results depend on the processing

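The count of members that rose moved from 3 to 5 with no filter on low counts, 8 after length correction (and 8 with the replicate block and length correction) and 6 with DESeq2; with 1 library left out it ranged from 0 to 3. The share of all genes called higher was 8.54% with no filter, 15.4% with the block and length correction, and 8.69% to 11.1% with 1 library left out; 12.3% were with the block alone. The count that fell moved from 0 to 1, Ndufs4, after length correction and to 1 with the replicate block and length correction. Across all settings 12 members were called in at least 1 and 45 in none; the cause was not tested. With 1 library left out the median of complex III ranged from 0.06 to 0.20, and its ratio of sums was 1.13 as CPM in place of TPM. Scaling moved the median of all genes by at most 0.04 on the log2 scale.

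Replicate numbers recur in both groups, but same-numbered libraries deviated together only in part (r of 0.214, 0.209 and 0.095). Of the unlike-numbered pairs, caNrf2 replicate 3 with ctrl replicate 2 had 0.112, the best for that caNrf2 library, and the rest lay between -0.242 and -0.012. The numbers were not taken as pairs, and whether they mark a shared litter or day is not stated in the titles. With the replicate block 1 member rose, Uqcrc1 (adjusted p = 0.0322), while Ndufb7 (0.0527), Ndufa8 (0.058) and Uqcr11 (0.0532) were not called. Upper-quartile factors also ended the calls of Ndufa8 (0.0584), Uqcr11 (0.0516), Ndufa4 (0.0666), Cox19 (0.0574) and Vdac3 (0.0757), total counts those of Ndufa4 (0.0545) and Vdac3 (0.0595), GC correction (0.0532) and limma-voom (0.0511) that of Uqcr11, no filter that of Cox19 (0.0742) and DESeq2 that of Ndufa4l2 (0.0677).

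The direction turned in 15 members, none of them called, counting only alternative values that do not round to 0.00. For Ndufb10, Ndufs8 and Uqcrb the main fold change itself rounds to 0.00, so they had hardly any direction to turn from. Ndufa1 also changed sign without caNrf2 replicate 1, from 0.15 to -0.00, and is one of those that turned between the 52 and the 41 positive members. With 1 library left out the fold changes of those it turned ranged from -0.12 to 0.17 (Ndufa5), -0.05 to 0.33 (Ndufa6), -0.07 to 0.30 (Ndufb4), -0.01 to 0.23 (Ndufb5), -0.12 to 0.10 (Ndufb9), -0.03 to 0.02 (Ndufb10), -0.11 to 0.16 (Ndufc1), -0.02 to 0.33 (Ndufc2), -0.02 to 0.43 (Ndufs5), -0.09 to 0.05 (Ndufs8), -0.05 to 0.02 (Ndufv3), -0.11 to 0.05 (Uqcrb), -0.02 to 0.15 (Cycs) and -0.02 to 0.24 (Cox4i1). After length correction, without and with the block, Ndufa5 (-0.02 and -0.01), Ndufb9 (-0.05 and -0.05), Ndufc1 (-0.04 and -0.04) and Ndufs8 (-0.06 and -0.06) turned. After GC correction Ndufb9 (-0.04), Ndufs8 (-0.09), Uqcrc2 (0.05) and Uqcrb (0.11) turned. Ndufs8 also turned with upper-quartile factors (-0.04), total counts (-0.02), without mitochondrial and small RNA genes (-0.01) and with limma-voom (-0.01).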
